A study of Mus musculus with 12 samples.

Results

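The DNA replication and mitosis genes described here were a list of 47 genes of the cell division cycle, chosen by name and role, with earlier results of these data known. The list held 17 genes of DNA replication and 30 genes of mitosis, out of 18194 genes with a named probe set on the array. A probe set is the group of short oligonucleotides that reports 1 transcript, and each gene was read from its brightest probe set. Of the 47 genes, 46 had a named probe set and 45 of these passed the expression minimum, a group mean of 50 or more in 1 group or several. The 45 were 16 replication genes and 29 mitosis genes. Ccnb1 (cyclin B1) was paired with no probe set that names a single gene in the table used here, so it has no value. Tyms (thymidylate synthase) lay below the minimum, with intensities from 0.977 to 45.5 over the 4 probe sets that name it alone. A further probe set names Tyms together with its pseudogene and was not read, so expression of Tyms cannot be judged from these values.

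All groups were primary chondrocytes, the cells of growing cartilage, from the long bones of CD1 mouse embryos at embryonic day 15.5, grown as monolayers in serum. They received 100 nM dexamethasone (DEX), a synthetic glucocorticoid, or its solvent DMSO (vehicle), and RNA was taken after 6 or 24 hrs. Each of the 4 groups (vehicle and DEX at 6 hrs, vehicle and DEX at 24 hrs) had 3 arrays, numbered 1, 2 and 4. The methods describe independent cell isolations for the replicates. A DEX array and a vehicle array with the same time and number were treated as a pair, which gave 6 pairs. The run records of both arrays labelled replicate 4 at 6 hrs carry the number 3 instead. The label was kept, which leaves the pairs within 6 hrs as they are, and whether this replicate matches replicate 4 at 24 hrs is not known. These cultures came from whole digested bones, so that other cells of the bone could be among them. All 15 listed chondrocyte markers passed the expression minimum, and so did 11 of 12 markers of tendon and perichondrial fibroblasts.

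A dividing cell first copies its DNA and then separates the copies. Before S phase, Cdc6 and Cdt1 load the Mcm2 to Mcm7 helicase onto replication origins, cyclin E and E2f1 drive entry, Cdc45 switches the helicase on, Pcna clamps the polymerases to DNA, and Rrm1, Rrm2, Tyms and Tk1 supply nucleotides. In mitosis, Cdk1 with its cyclins starts the process, Plk1 and the Aurora kinases build the spindle, the checkpoint proteins Bub1, Bub1b, Ttk and Mad2l1 hold the chromosomes back until they are attached, and Cdc20 and Ube2c then release them. In the growth plate, chondrocytes of the proliferative zone divide in columns and leave the cycle when they enlarge. Because the RNA came from whole cultures, fewer dividing cells and less of such RNA per dividing cell cannot be told apart.

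Promoters of these genes share sequence elements that are known to time their expression, so the bases just upstream of the start are shown for 6 of them. RefSeq promoter windows (GRCm38.p6) were matched by symbol for 38 of the 47 genes. Those without a window were Ccne2, Mcm4, Ccna2, Cdc25c, Foxm1, Aurkb, Kif20a, Tpx2 and Pbk. The 250 bases before the start are printed 5′ to 3′ in the direction of the gene. Capitals mark CCAAT (the CCAAT box), TTTGAA or TTCGAA (the cell cycle genes homology region, CHR) and TTTGGCGC, TTTCGCGC, TTTCCCGC or TTTGCCGC (E2F type), each searched on both strands. Ccnb2 (chr9:70421555-70421804, minus strand), Cdk1 (chr10:69352913-69353162, minus strand) and Ube2c (chr2:164769679-164769928, plus strand) stand for the mitosis genes, as promoters that hold several of the elements. Mcm6 (chr1:128359706-128359955, minus strand) stands for the replication genes with E2F letters. Tk1 (chr11:117826015-117826264, minus strand) and Bub1 (chr2:127831860-127832109, minus strand) are shown because their RNA lay below vehicle in every pair, as given further on.
Ccnb2: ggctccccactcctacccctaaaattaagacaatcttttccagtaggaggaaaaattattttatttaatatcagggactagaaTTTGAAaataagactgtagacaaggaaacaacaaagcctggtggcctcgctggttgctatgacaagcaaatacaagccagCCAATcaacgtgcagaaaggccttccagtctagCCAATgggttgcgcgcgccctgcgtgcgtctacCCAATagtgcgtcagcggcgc
Cdk1: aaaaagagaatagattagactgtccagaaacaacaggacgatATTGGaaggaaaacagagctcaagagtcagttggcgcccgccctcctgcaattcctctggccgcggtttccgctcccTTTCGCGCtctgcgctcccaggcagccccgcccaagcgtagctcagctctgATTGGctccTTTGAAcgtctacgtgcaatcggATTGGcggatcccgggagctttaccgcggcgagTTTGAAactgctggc
Ube2c: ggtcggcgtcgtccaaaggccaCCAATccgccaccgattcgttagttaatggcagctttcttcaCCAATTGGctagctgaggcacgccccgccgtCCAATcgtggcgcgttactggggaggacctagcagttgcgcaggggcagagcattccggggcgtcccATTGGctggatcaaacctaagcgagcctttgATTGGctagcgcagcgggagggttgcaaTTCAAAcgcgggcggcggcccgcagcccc
Mcm6: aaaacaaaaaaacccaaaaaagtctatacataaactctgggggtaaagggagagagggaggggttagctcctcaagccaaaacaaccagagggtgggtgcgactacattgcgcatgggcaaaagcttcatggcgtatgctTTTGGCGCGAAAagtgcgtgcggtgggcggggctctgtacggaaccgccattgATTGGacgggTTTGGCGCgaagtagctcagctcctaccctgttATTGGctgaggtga
Tk1: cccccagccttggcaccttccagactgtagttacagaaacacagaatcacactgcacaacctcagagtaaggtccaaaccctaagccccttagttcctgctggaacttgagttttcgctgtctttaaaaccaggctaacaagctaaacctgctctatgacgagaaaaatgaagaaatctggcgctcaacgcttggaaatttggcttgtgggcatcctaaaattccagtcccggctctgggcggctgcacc
Bub1: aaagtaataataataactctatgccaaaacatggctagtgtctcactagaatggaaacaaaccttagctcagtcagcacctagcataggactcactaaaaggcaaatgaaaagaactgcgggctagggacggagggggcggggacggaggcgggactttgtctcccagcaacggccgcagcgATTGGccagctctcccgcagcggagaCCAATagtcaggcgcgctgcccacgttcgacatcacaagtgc

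In the Ccnb2 window, CCAAT began 87, 54 and 21 bases before the start. In the Cdk1 window, letters of this box began 208, 80 and 48 bases before the start, with CHR letters 71 and 15 bases before it and E2F letters 131 bases before it. The Tk1 window held none of the letters searched. CCAAT was found in 20 of 23 mitosis windows (87.0%) and 9 of 15 replication windows (60.0%), against 36.3% of the windows of 17492 protein-coding genes. A spacing of 31 to 34 bases between the first bases of CCAAT matches, chosen after the positions were seen, was found in 7 of 23 mitosis windows (30.4%), in 0 of 15 replication windows and in 1.46% of all. The 7 were Aurka, Ccnb1, Ccnb2, Cdca3, Cdca8, Cdk1 and Ube2c. E2F letters were in 4 of 15 replication windows (26.7%) and in Cdk1 alone of the 23 mitosis windows (4.35%), against 2.41% of all. CHR letters were in 8 of 23 mitosis windows (34.8%), in 3 of 15 replication windows (20.0%) and in 16.4% of all. The median log2 fold change with DEX at 24 hrs was -0.17 for the 11 expressed genes with CHR letters and -0.12 for the 25 without, and -0.16 for the 28 with CCAAT and -0.10 for the 8 without. For E2F letters it was -0.12 for the 5 with and -0.16 for the 31 without. At 6 hrs the order was the other way for each, with -0.07 against -0.11 for CHR, -0.07 against -0.13 for CCAAT and -0.11 against -0.08 for E2F. These shares and medians describe letters in a window and not binding. Start sites were taken as given, and whether each is the one used in these cells was not tested.

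What the arrays show for DEX is a small downward lean of the list at 24 hrs, with no gene past the threshold in the fit without pairs and 1 gene, Tk1, in the fit with pairs. Of the 45 genes, 0 passed an adjusted p of 0.05 at 6 hrs (0.225% of the 20897 expressed probe sets did), 0 at 24 hrs (0.287% did) and 0 over both times (0.747% did). The test was limma with 1 mean per group, adjusted by Benjamini and Hochberg over all expressed probe sets, and 0 of the 45 reached an unadjusted p of 0.05 in any of the 3 comparisons (3.66%, 6.24% and 5.65% of all did). With the pairs as a block, 0 passed at 6 hrs (0.904% of all), 0 at 24 hrs (2.15% of all) and 1 over both times (3.20% of all in either direction and 1.29% lower). In that fit 8 genes reached an unadjusted p of 0.05 at 24 hrs, all lower with DEX (9.24% of all did so), namely Tk1, Cdc6, Mcm4, Ccna2, Cdca8, Bub1, Kif11 and Pbk. With hybridization day as a block, 0 of the 45 passed at either time (0.948% and 2.18% of all) or over both (2.87% of all).

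The fold changes were small in both directions. The median log2 fold change of the 45 genes was -0.08 at 6 hrs and -0.13 at 24 hrs, against -0.01 and -0.03 over all expressed probe sets. Below 0 were 33 of the 45 genes at 6 hrs (73.3%, against 52.0% of all expressed probe sets) and 40 at 24 hrs (88.9%, against 54.9%). For the 16 replication genes the median was -0.12 at both times, and for the 29 mitosis genes it was -0.05 at 6 hrs and -0.16 at 24 hrs. The 95% interval of the fold change lay within 2-fold in either direction for 44 of the 45 genes at 6 hrs and 39 at 24 hrs, and within 1.5-fold for 21 and 20. With the pairs as a block, all 45 intervals lay within 2-fold at each time, and 41 and 40 within 1.5-fold.

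**Figure D1:**
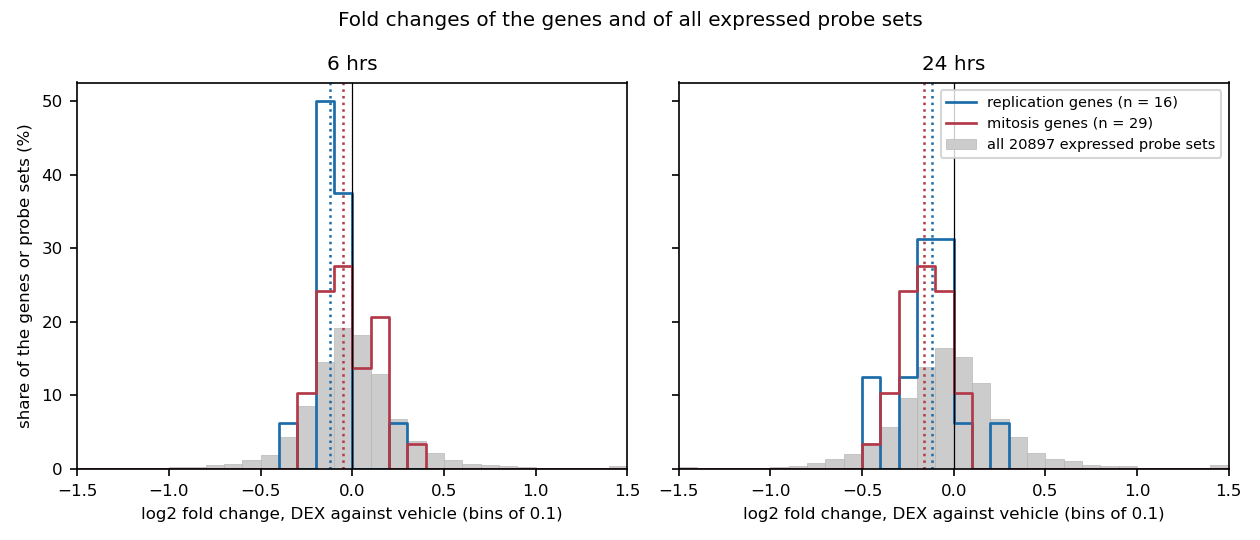
Log2 fold change with DEX at 6 hrs (left) and 24 hrs (right), in bins of 0.1, for the 16 replication genes (blue), the 29 mitosis genes (red) and all 20897 expressed probe sets (grey bars, the outermost of which hold all values beyond the axis). Heights are the share of each set in percent, and dotted lines are the medians of each set of genes, -0.12 and -0.05 at 6 hrs and -0.12 and -0.16 at 24 hrs.

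The lean differed between pairs. At 6 hrs the median of the 45 genes, DEX minus vehicle on the log2 scale, was 0.04 in replicate 1 and -0.01 in replicate 2, with 20 and 24 genes below 0, and -0.21 in replicate 4, with 33 below 0. At 24 hrs it was -0.17 in replicate 1 and -0.24 in replicate 4, with 41 and 39 genes below 0, and -0.03 in replicate 2, with 27 below 0. Over all expressed probe sets, between 49.4% and 54.4% lay below 0 in the 6 pairs. The shift at 6 hrs thus lay in replicate 4, and that at 24 hrs was small in replicate 2. Without the DEX array of replicate 4 at 6 hrs, the median at 6 hrs was 0.08. Its vehicle array stayed in that comparison, so the groups no longer shared their pairs and hybridization days. No gene differed by more than 1 on the log2 scale in any pair, and between 2.95% and 5.03% of all expressed probe sets did so. With 45 genes, a count of 0 is near those shares. The whole set was not matched to the genes in intensity, and its median SD was larger in each group.

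At 24 hrs, 23 of the 45 genes lay below 0 in all 3 pairs (51.1%, against 22.6% of all expressed probe sets), and Cdc25c alone lay above 0 in all 3 (2.22%, against 17.7%). At 6 hrs, 10 lay below 0 in all 3 pairs (22.2%, against 18.7%) and 5 above (11.1%, against 14.9%). Over both times 5 genes lay below 0 in all 6 pairs (11.1%, against 4.71%), namely Tk1, Mcm3, Bub1, Bub1b and Mad2l1, and 0 lay above 0 in all 6. The 45 genes belong to a shared program and are not independent of each other, so these shares are a description.

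**Figure D2:**
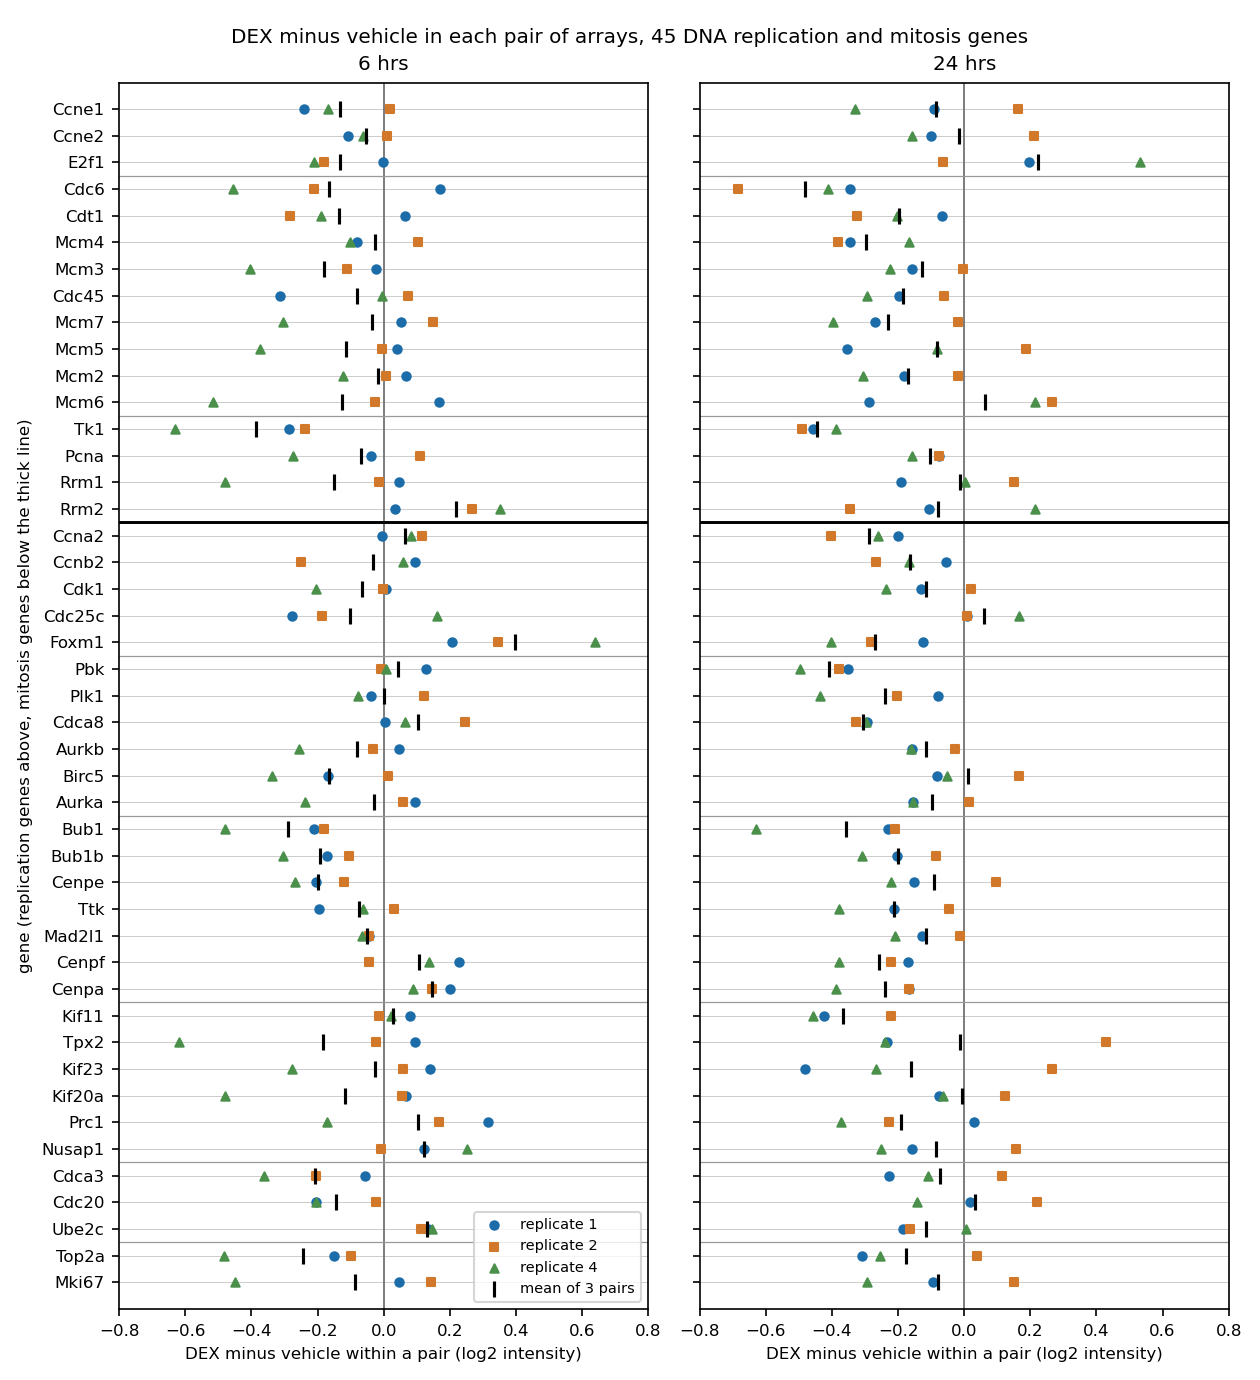
DEX minus vehicle (log2 intensity) within each pair of arrays at 6 hrs (left) and 24 hrs (right) for the 45 expressed genes, grouped by role between the thin lines, with replication genes above and mitosis genes below the thick line. Coloured symbols are the 3 pairs and black ticks their mean. At 24 hrs, 23 genes have all 3 symbols left of 0, and replicate 2 (squares) lies furthest right for many of them.

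Among the genes that supply nucleotides, Tk1 (thymidine kinase, which salvages thymidine in S phase) had the lowest log2 fold change of the 45 genes over both times. Its intensities (probe set 1416258_at) at 6 hrs were 655, 713 and 494 with vehicle and 537, 605 and 319 with DEX, in replicates 1, 2 and 4. At 24 hrs they were 1019, 847 and 686 with vehicle and 742, 602 and 524 with DEX. Every DEX array lay below its own vehicle array, and the groups overlapped at both times. The log2 fold change was -0.39 (SE 0.27) at 6 hrs and -0.45 (SE 0.27) at 24 hrs. Over both times it was -0.42, with an adjusted p of 0.885 in limma without the pairs, 0.0472 with the pairs as a block (SE 0.08) and 0.163 with hybridization day as a block. Tk1 thus passed in the paired fit alone, in which 3.20% of all expressed probe sets passed, a share near 1 in 45. In percent of vehicle the change was -23.4% at 6 hrs and -26.6% at 24 hrs. Tk1 is read by 1 expressed probe set, so that no second reading of the transcript was at hand.

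Rrm2 and Rrm1 (the subunits of ribonucleotide reductase, which makes deoxyribonucleotides) and Pcna had no value past the threshold in any of these fits. Rrm2 intensities (1434437_x_at) at 6 hrs were 3303, 2716 and 2993 with vehicle and 3385, 3271 and 3818 with DEX, higher in all 3 pairs. At 24 hrs they were 3228, 3109 and 2542 with vehicle and 2997, 2447 and 2946 with DEX, lower in replicates 1 and 2 and higher in replicate 4. The log2 fold changes were 0.22 (95% interval -0.14 to 0.58) and -0.08 (-0.44 to 0.28). Pcna (1417947_at) at 24 hrs read 2958, 2850.2 and 2887 with vehicle and 2806, 2703 and 2587 with DEX, so that the groups did not overlap. Of all expressed probe sets, 10.9% were lower in this way at 24 hrs. The difference of Pcna was small, -0.10 on the log2 scale (95% interval -0.41 to 0.21) or -6.93%. Rrm1 had log2 fold changes of -0.15 at 6 hrs and -0.01 at 24 hrs.

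The 9 genes that license origins and form the helicase had medians of -0.11 at 6 hrs and -0.185 at 24 hrs, with all 9 below 0 at 6 hrs and 8 at 24 hrs, and none passed in any fit. Cdc6 had the lowest log2 fold change of the 45 genes at 24 hrs, -0.48 (SE 0.36). Its intensities (1417019_a_at) at 24 hrs were 201, 161 and 145 with vehicle and 158, 100.4 and 109 with DEX. Each DEX array lay below its own vehicle array, and the highest DEX array lay above the lowest vehicle array. At 6 hrs its pairs differed in sign, from -0.46 in replicate 4 to 0.17 in replicate 1. Adjusted p for Cdc6 at 24 hrs was 0.163 with the pairs as a block. Cdc6 is singled out here after its values were seen.

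Mcm3, a helicase subunit, lay below vehicle in all 6 pairs (1420028_s_at). At 6 hrs it read 1524, 1431 and 1459 with vehicle and 1499.5, 1326 and 1102 with DEX, and at 24 hrs 1400.2, 1081 and 1180.3 with vehicle and 1256, 1079 and 1010.1 with DEX. The difference in replicate 2 at 24 hrs was near 0, and the log2 fold changes were -0.18 (95% interval -0.55 to 0.19) and -0.13 (-0.50 to 0.25). Mcm5 (1436808_x_at) at 24 hrs read 1596, 1217 and 1202 with vehicle and 1247, 1387 and 1135 with DEX, higher in replicate 2 only. It differed by -0.11 at 6 hrs and -0.08 at 24 hrs, and its pairs had both signs at each time. Among the other members of this set, Mcm4 had -0.30, Mcm7 -0.23, Cdt1 -0.20, Cdc45 -0.185 and Mcm2 -0.17 at 24 hrs, each below 0 in all 3 pairs. Mcm6 had 0.06. For Cdc45 the groups at 24 hrs did not overlap, at 149, 137 and 160.0 with vehicle and 129.6, 132 and 130.5 with DEX. Of all expressed probe sets, 10.9% were lower in this way.

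The genes of S phase entry were level or mixed. Ccne1 (cyclin E1, 1441910_x_at) read 1142, 1064 and 610.0 with vehicle and 966, 1077 and 543 with DEX at 6 hrs, and 699, 621 and 671 against 656, 696 and 534 at 24 hrs. It differed by -0.13 at 6 hrs (95% interval -0.78 to 0.51) and by -0.09 at 24 hrs (-0.73 to 0.56), with both signs among the pairs at each time. Ccne2 had -0.05 and -0.02. E2f1, a transcription factor that turns on replication genes, had -0.13 at 6 hrs and 0.22 at 24 hrs. The latter was the highest value of the 45 genes at that time, with both signs among the pairs. The other expressed probe set of E2f1 had the opposite signs, 0.29 at 6 hrs and -0.01 at 24 hrs. The probe sets of Ccne1, Mcm5, Rrm2 and 3 further members end in _x_at, which on this platform marks oligonucleotides that may also match other transcripts.

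In mitosis, the 7 kinetochore and checkpoint genes had median log2 fold changes of -0.08 (6 hrs) and -0.21 (24 hrs), with all 7 below 0 at 24 hrs. Bub1 (1424046_at), a kinase of the spindle checkpoint, read 630.3, 525 and 381 with vehicle and 545, 463 and 273 with DEX at 6 hrs. At 24 hrs it read 429, 317 and 389.9 with vehicle and 365, 274 and 252 with DEX. All 6 DEX arrays lay below their own vehicle arrays, while the spread between replicates made the groups overlap. The log2 fold changes were -0.29 (95% interval -0.92 to 0.34) and -0.36 (-0.98 to 0.27), and over both times -0.32, with an adjusted p of 0.139 with the pairs as a block.

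Bub1b (BubR1, 1416961_at), which restrains the anaphase ubiquitin ligase, read 539.6, 504 and 371 with vehicle and 479, 469 and 301 with DEX at 6 hrs, and 438, 371 and 403 against 379.8, 349 and 325 at 24 hrs. It was lower in all 6 pairs, by -0.19 and -0.20 on the log2 scale (SE 0.21 at each time). Mad2l1 (1422460_at), which holds Cdc20 inactive until chromosomes attach, read 1081, 727 and 863 with vehicle and 989.6, 720.5 and 746 with DEX at 24 hrs. It was lower in all 6 pairs by less, from -0.01 to -0.21, and its log2 fold changes were -0.05 and -0.12. Of the other members of this set at 24 hrs, Cenpf had -0.26, Cenpa -0.24, Ttk -0.21 and Cenpe -0.09. The other expressed probe set of Cenpe had 0.27. Cenpf did not overlap between groups at 24 hrs, at 304, 290.3 and 308 with vehicle and 270.2, 249 and 237 with DEX (10.9% of all were lower in this way).

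**Figure D3:**
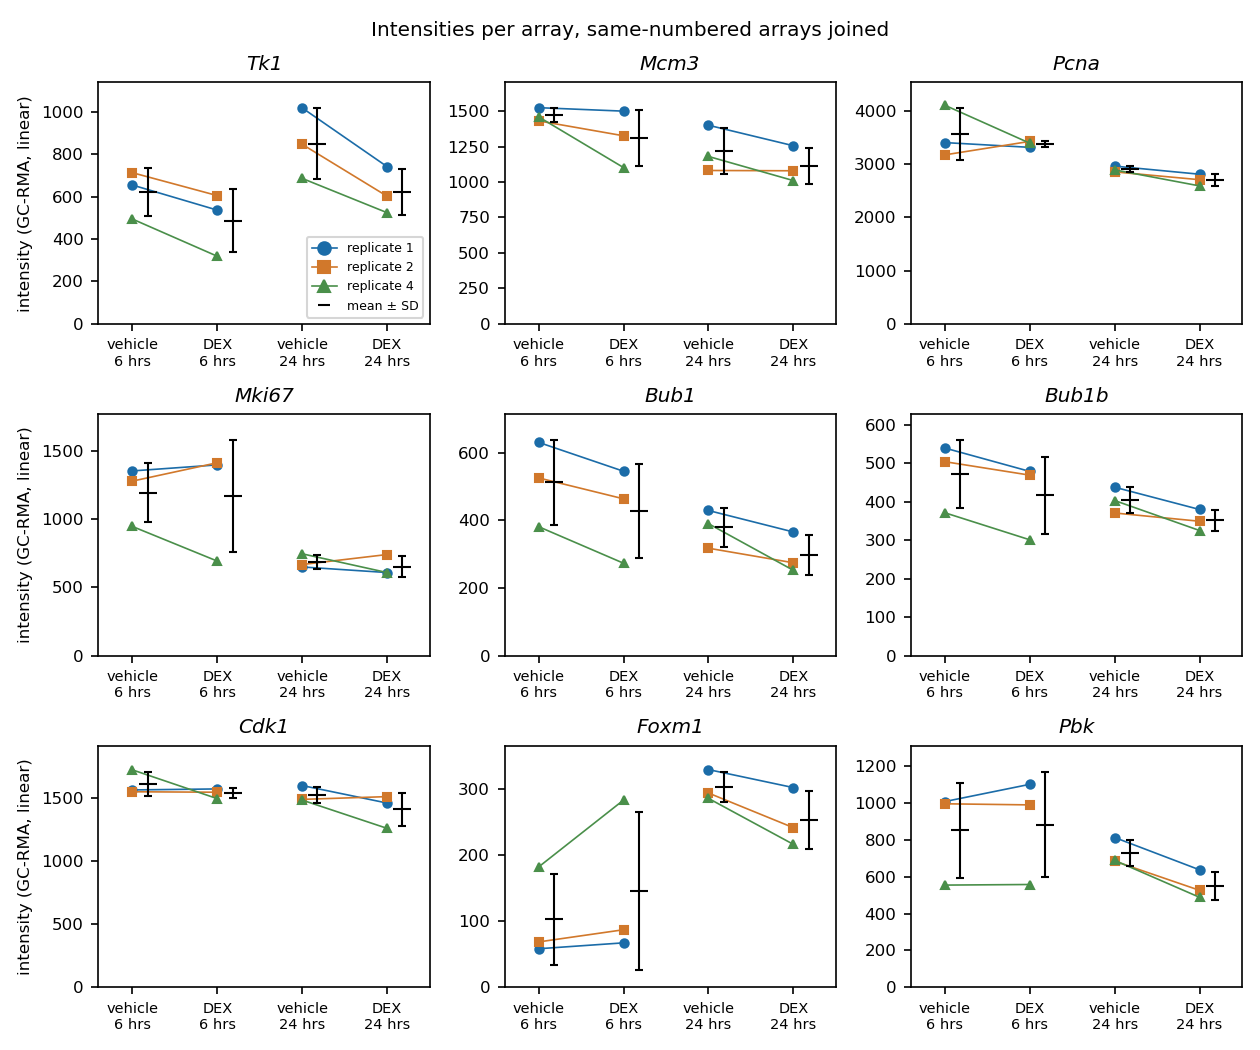
Intensity (GC-RMA, linear axis from 0) of 9 of the genes on each of the 12 arrays, with same-numbered DEX and vehicle arrays joined by a line, and black bars for the mean ± SD of 3 arrays. Lines of Tk1, Mcm3, Bub1 and Bub1b slope down in all 6 pairs, those of Foxm1 slope up at 6 hrs and down at 24 hrs, and at 6 hrs replicate 4 of Mki67, Bub1 and Pbk lies apart from replicates 1 and 2.

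Cdk1 (1448314_at), the kinase that starts mitosis, was among the most even of the genes. It read 1563, 1549 and 1722 with vehicle and 1571, 1545 and 1494 with DEX at 6 hrs, and 1598, 1489 and 1483 against 1459.5, 1510.5 and 1259 at 24 hrs. The log2 fold changes were -0.07 (95% interval -0.37 to 0.23) and -0.12 (-0.42 to 0.18). Its partners Ccna2 (cyclin A2) and Ccnb2 (cyclin B2) had 0.06 and -0.03 at 6 hrs and -0.29 and -0.16 at 24 hrs, with all 3 pairs below 0 at 24 hrs for each. Cdc25c, the phosphatase that activates Cdk1, had -0.10 and 0.06.

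Of the mitotic kinases and the chromosomal passenger complex, Pbk had the lowest value at 24 hrs, -0.41 (SE 0.29). It read 813, 684 and 688 with vehicle and 637, 526 and 488 with DEX, so that the groups did not overlap (10.9% of all were lower in this way). Its adjusted p at 24 hrs was 0.105 with the pairs as a block. At 6 hrs it had 0.04. Plk1 had -0.24 at 24 hrs with all 3 pairs below 0, Aurkb -0.12 likewise, Aurka -0.10 with both signs and Birc5 (survivin) 0.01. The other expressed probe set of Aurkb had 0.10. Kif11, a motor that separates the spindle poles, had 0.03 at 6 hrs and -0.37 at 24 hrs, with 392, 261 and 278 for vehicle and 292, 224 and 202 for DEX at 24 hrs. The other spindle and cytokinesis genes at 24 hrs lay between -0.19 for Prc1 and -0.01 for Kif20a. Pbk and Kif11, like the genes named for groups that did not overlap, are singled out after their values were seen.

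Mki67 (the proliferation marker Ki-67, 1426817_at) and Top2a (topoisomerase II alpha, which untangles chromosomes, 1454694_a_at) had no value past the threshold in any of these fits. Mki67 read 1356, 1281 and 948 with vehicle and 1400.4, 1416 and 694 with DEX at 6 hrs, and 651, 669 and 747 against 609.7, 742 and 609.5 at 24 hrs. Its log2 fold changes were -0.09 (95% interval -0.68 to 0.50) and -0.08 (-0.67 to 0.51), with both signs among the pairs at each time. Top2a read 1640.2, 1563 and 1511 with vehicle and 1477, 1459.9 and 1081 with DEX at 6 hrs, the single member whose groups did not overlap at that time (2.96% of all expressed probe sets were lower in this way). Its log2 fold changes were -0.24 (95% interval -0.60 to 0.11) and -0.18 (-0.53 to 0.18). The other expressed probe set of Top2a, with a mean intensity of 75.9, had 0.19 and -0.305. At 24 hrs the groups of 5 genes did not overlap, Cdc45, Cdca8, Cenpf, Pbk and Pcna, all lower with DEX (10.9% of all were), and 0 were higher without overlap (8.45% of all). A count of 5 in 45 is near the share of all that were lower. Cdc20 had 0.03, Ube2c -0.11 and Cdca3 -0.07 at 24 hrs. The other expressed probe sets of Cdc20 had -0.18 and 0.195 at that time.

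Whether the DEX effect differed between 6 and 24 hrs was tested with the interaction term, and 0 of the 45 genes passed (0.00% of all did). With the pairs as a block 0 of the 45 passed (0.00479% of all). At an unadjusted p of 0.05 the counts of members were 0 without the pairs (3.63% of all in either direction) and 6 with them, all 6 lower at 24 hrs (6.82% of all). Foxm1, Cenpa and Cdca8 lay above vehicle in all 3 pairs at 6 hrs and below it in all 3 at 24 hrs (6.67% of the 45, against 3.04% of all), and 0 members showed the opposite. Foxm1 (1448834_at), a transcription factor of mitosis genes, read 58.1, 68.4 and 182 with vehicle and 67.0, 86.8 and 283 with DEX at 6 hrs. At 24 hrs it read 329, 293 and 285 with vehicle and 302, 241 and 216 with DEX. Replicates 1 and 2 at 6 hrs lay near the expression minimum of 50, far below all other arrays. Cdca8 had the pattern in its brightest probe set only, and its other expressed probe sets were lower with DEX at 6 hrs.

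Beyond the 47 genes, 2 longer lists of the same pathways were counted, and they leaned the same way without a call in the fit without pairs. Of 42 other replication genes, 39 were expressed, with medians of -0.10 at 6 hrs and -0.14 at 24 hrs and 32 (82.1%) and 34 (87.2%) below 0. Of 52 other mitosis genes, 49 were expressed, with medians of -0.05 and -0.16 and 31 (63.3%) and 38 (77.6%) below 0, against 52.0% and 54.9% of all expressed probe sets. Over both times 0 of the 39 and 0 of the 49 passed without the pairs (0.747% of all did), and 1 of the 39 and 0 of the 49 with the pairs as a block (3.20% of all). A count of 1 in 39 is near that share. That gene was Rfc3, a subunit of the complex that loads Pcna onto DNA, with mean intensities of 232 and 158 at 6 hrs and 277 and 199.7 at 24 hrs for vehicle and DEX. Its log2 fold change over both times was -0.50 (SE 0.14), lower in 6 of 6 pairs, with an adjusted p of 0.281 without the pairs, 0.0412 with them and 0.0333 with hybridization day as a block, in which 2.87% of all passed. The highest value over both times among these genes was that of Fen1, which trims Okazaki fragments, 0.62 (SE 0.36), higher in 4 of 6 pairs and not past the threshold in any of these fits.

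Time in culture could be compared only in part, because each hybridization day carried a single time point, and time cannot be told apart from day. In vehicle, 0 of the 45 genes passed between 24 and 6 hrs (0.00957% of all did), with 10 at an unadjusted p of 0.05 (30.5% of all). The count of 0 past the adjusted threshold depended on single arrays. It was 3 without replicate 4 of DEX at 6 hrs (14.2% of all), which entered through the shared spread, 12 without replicate 4 of vehicle at 6 hrs (31.7% of all) and 24 without that pair (50.7% of all). With the mean of all probe sets of a gene it was 1 (3.45% of all genes). The groups did not overlap for 10 genes that were lower at 24 hrs (13.4% of all were) and for 6 that were higher (19.6% of all). The lower ones were Cdc45, Cdc6, Cenpe, Cenpf, Mcm3, Mki67, Pcna, Prc1, Top2a and Tpx2, and the higher ones Ccna2, Ccnb2, Cdca3, E2f1, Foxm1 and Kif11. Foxm1 had the largest difference, 1.75 on the log2 scale, followed in size by Ccne2 (-0.90), Cdc6 (-0.85), Mki67 (-0.78) and Ccnb2 (0.77). Many of these values moved with hybridization day.

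The 4 arrays of hybridization day 3, replicates 1 and 2 of both groups at 6 hrs, stood apart in the control transcripts. The log2 difference between the 3′ and 5′ probe sets of Gapdh was 0.49 to 0.74 on these arrays and -0.33 to -0.22 on the other 8. On day 3, 36 of the 45 genes lay higher than on the other arrays and 9 lower, with a median of 0.33, against -0.10 over all expressed probe sets. The part of RNA quality or hybridization in this was not tested. Without the day 3 arrays, where vehicle at 6 hrs is replicate 4 alone and its spread is assumed to be that of the other groups, several differences between 24 and 6 hrs shrank. That of Ccne2 went from -0.90 to -0.05, that of Cdca8 from -0.64 to -0.04, that of Foxm1 from 1.75 to 0.73 and that of Mad2l1 from -0.51 to 0.02. That of Mki67 went from -0.78 to -0.46. Ccnb2 stayed near its value, with 0.77 and 0.75, and Pcna and Tk1 had larger ones, with -0.29 and -0.50 and with 0.45 and 0.76.

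**Figure D4:**
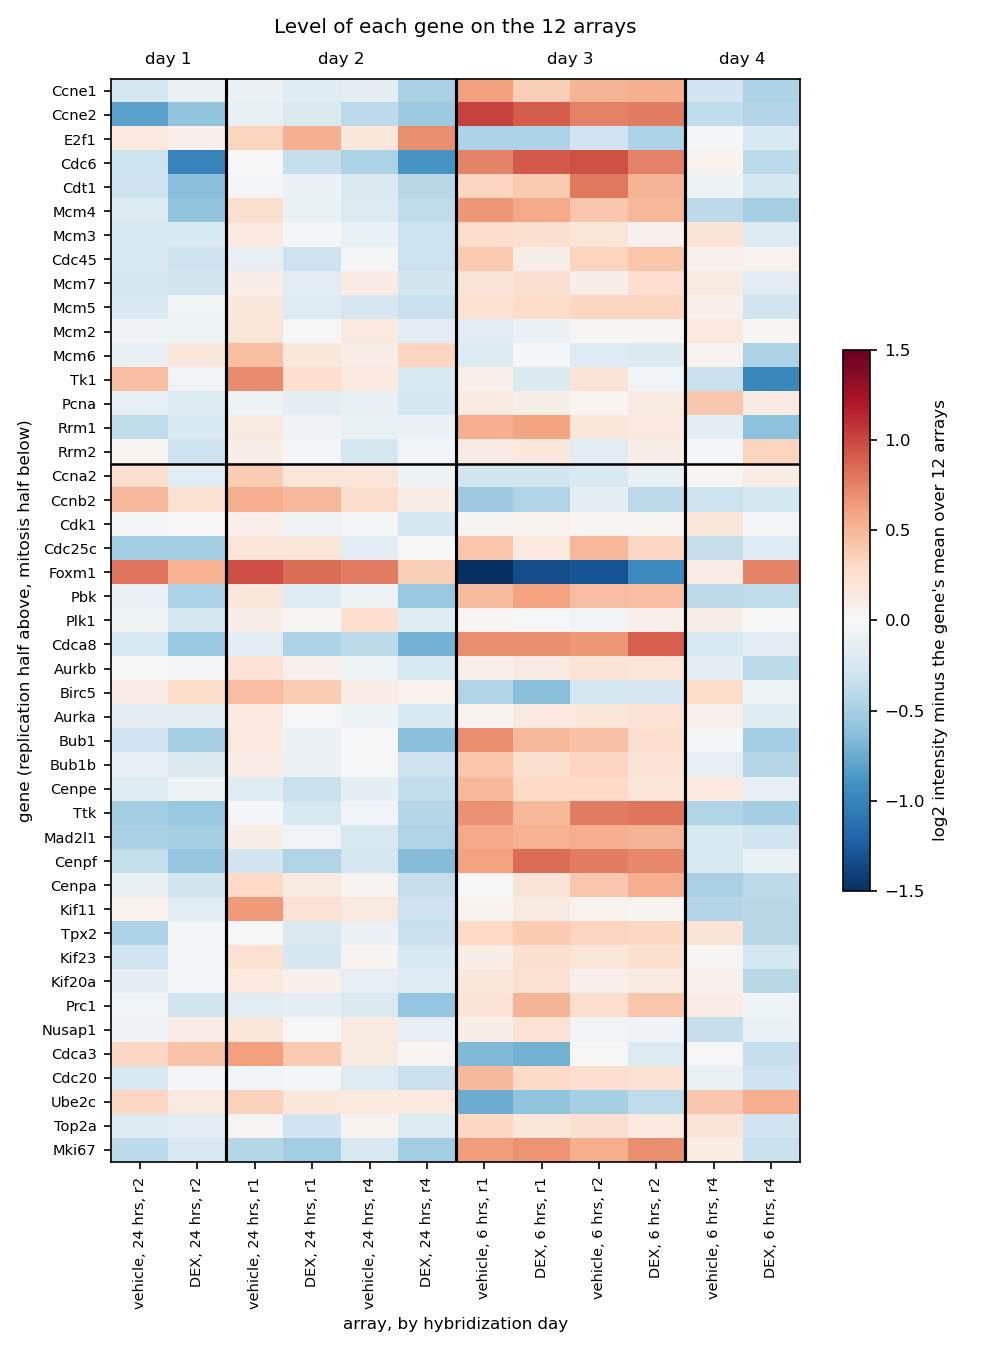
Level of the 45 genes on the 12 arrays as log2 intensity minus the gene's own mean (red higher, blue lower), with arrays ordered by hybridization day and vertical lines between days. The 4 arrays of day 3 are red for most genes and blue for Foxm1, E2f1 and Ube2c. On that day DEX and vehicle arrays of the same number look alike. On day 4 the DEX array lies lower, with medians of -0.28 (replication) and -0.26 (mitosis), against 0.01 for each with vehicle.

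Probe sets of the same gene spread more between day 3 and the other arrays than with DEX, where the changes themselves were smaller. Of the 45 genes, 25 had several expressed probe sets. On day 3 against the other arrays, probe sets of the same gene had opposite signs in 15 of the 25, with a median span of 0.78 between the highest and the lowest. For Kif11 the values were 0.10 for the brightest probe set (1452314_at) and -1.99 for 1452315_at. For Rrm1 they were 0.55 and -1.10, and for Kif23 0.29 and -1.48. All 3 probe sets of Foxm1 were lower on day 3, with -1.92 for the brightest. For DEX at 24 hrs the signs differed in 7 of the 25 genes and the median span was 0.18, and at 6 hrs in 10 with a span of 0.29. The median size of the difference over the 45 genes was 0.48 for day 3, 0.16 for DEX at 24 hrs and 0.11 at 6 hrs. The smaller spans with DEX therefore do not show that its probe sets agreed better. Over all 83 expressed probe sets of the 45 genes, 71 lay below 0 at 24 hrs (median -0.16) and 55 at 6 hrs (median -0.07).

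**Figure D5:**
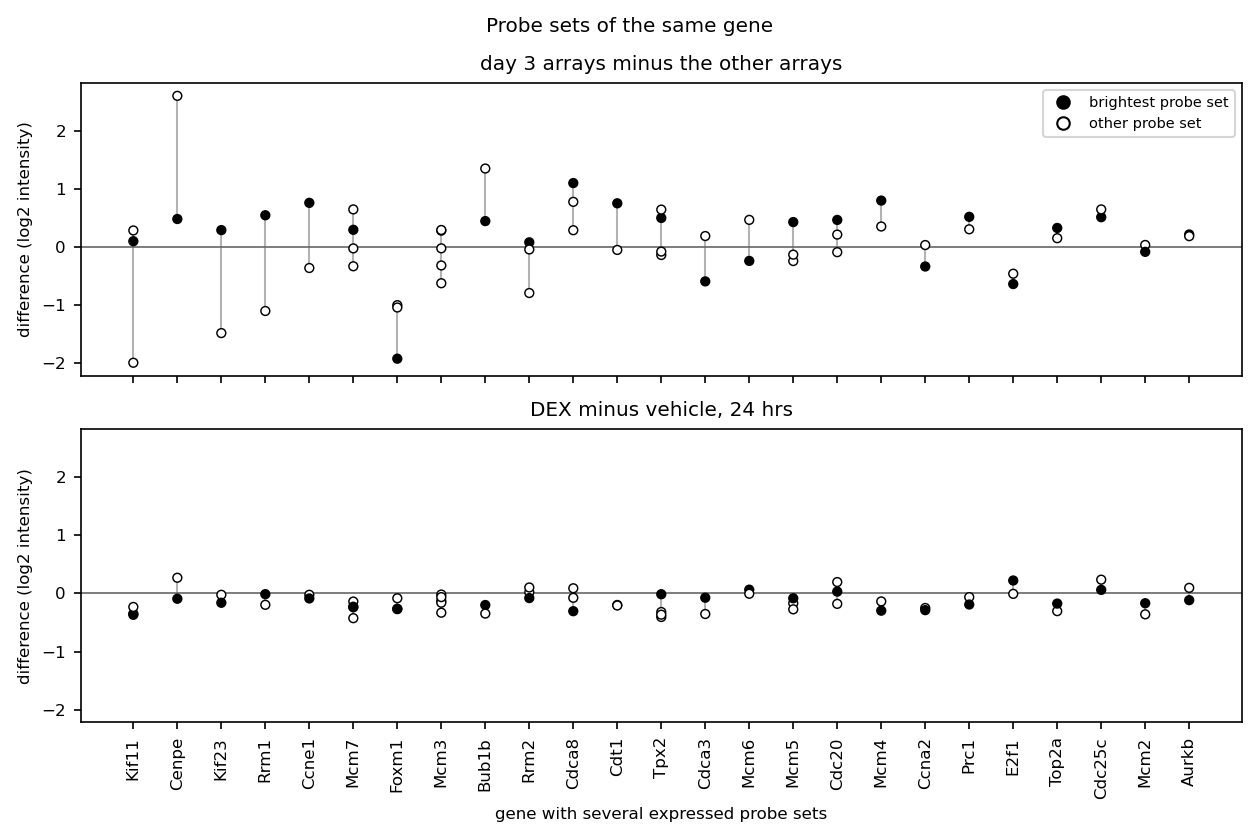
Difference in log2 intensity for each expressed probe set of the 25 genes with several, on day 3 arrays against the other 8 (top) and for DEX against vehicle at 24 hrs (bottom), on the same scale. Filled points are the brightest probe set of a gene and grey lines join probe sets of the same gene. These spread more at the top (median span 0.78) than at the bottom (0.18), where the differences are smaller too.

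Markers of other cell types are given as measured, and their part in the values above was not tested. Of 14 macrophage markers 8 passed the expression minimum, namely Cd68, Adgre1, Csf1r, Lyz2, Fcer1g, Cd14, Laptm5 and Ctss. Ptprc, Tyrobp, Itgam, C1qa, C1qb and C1qc did not. The summed intensity of all 14 ranged from 1013 to 1259 with vehicle and from 912 to 1052 with DEX at 24 hrs. The median log2 fold change of the 8 was -0.30. Of 12 skeletal muscle markers 11 passed, with sums of 686 to 2316 with vehicle and 547 to 1444 with DEX at 24 hrs and a median of -0.57. The chondrocyte markers had sums of 30869 to 45226 and 35120.3 to 45198, with a median of 0.23, and the fibroblast markers a median of -0.05. Endothelial and erythroid markers passed for 1 of 7 genes each. None of these markers passed the test for DEX at either time. The spread within groups was wider at 6 hrs than at 24 hrs, where the median SD of the 45 genes on the log2 scale was 0.16 with vehicle and likewise with DEX. The medians at 6 hrs were 0.28 with vehicle and 0.32 with DEX.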

How the data were processed

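RNA of 12 cultures was hybridized to 1 Affymetrix mouse array each, and the authors used GeneSpring GX and its GC-RMA routine on the scans. The deposited table holds linear intensities of 45101 probe sets. Submitters' processing notes name GCRMA, and its version is not given in the sources used here. Hybridization days came from the deposited array run records, which hold text and no score. Per platform annotation 34958 probe sets name 1 gene, 932 several and 9211 none, and 34754 of the 34958 were matched to RefSeq. Values were taken to log2 with no pseudocount. The 20897 probe sets whose mean reached 50 in some group were tested with limma 3.58.1 in R 4.3.3 (lmFit, eBayes, all 12 arrays, 1 mean per group, no block), with Benjamini and Hochberg adjustment over all of them and calls at 0.05. Standard errors (SE) are moderated, and intervals are at 95%. Python 3.11.15 drew the figures. The scripts were tested on simulated data. An array has no read depth, and the number of arrays limits the precision.

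After each group mean was subtracted, DEX and vehicle arrays with 1 number correlated at 6 hrs (0.681, 0.632, 0.863) and more weakly at 24 hrs (0.158, 0.301, 0.220). Each value exceeded 0.1, and arrays were therefore paired by number within a time. Same-numbered arrays also shared a hybridization day. Across time the correlations lay between -0.0434 and 0.0892, and no pairing was made. The 24 hrs arrays were hybridized on day 1 (replicate 2) and day 2 (1 and 4), those of 6 hrs on day 3 (1 and 2) and day 4 (replicate 4). The genes named by rule were Mki67, Top2a, Ccnb1, Cdk1, Pcna, Mcm5, Rrm2 and Ccne1, plus, where under 4 of a set passed, those with 1 sign in all 6 pairs, up to 4 a set. The members and lists were chosen with earlier results of these data known. Alternatives tried were the block, the expression minimum, the offset, the scaling, the variance prior, the probe set rule, the methods' Welch test and leaving arrays out.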

Additional observations from a re-analysis of the deposited data

Results flagged for a closer look

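For 3 genes the DEX effect pointed up in every pair at 6 hrs and down in every pair at 24 hrs (6.67% of the 45, against 3.04% of all expressed probe sets). This describes the brightest probe set of each gene. The difference of the DEX effect, 24 hrs minus 6 hrs on the log2 scale, was -0.67 for Foxm1, -0.41 for Cdca8 and -0.39 for Cenpa. The interaction test in limma gave an adjusted p of 1.0 for each of these, and with the pairs as a block of 0.286 for Foxm1, 0.352 for Cdca8 and 0.369 for Cenpa. The other 2 probe sets of Foxm1 had DEX effects of 0.08 and 0.09 at 6 hrs and -0.08 and -0.27 at 24 hrs. Those of Cdca8 had -0.23 and -0.12 at 6 hrs and 0.09 and -0.08 at 24 hrs, so that neither had this pattern.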

How the results depend on the processing

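The counts of genes past the threshold with DEX at 6 hrs, at 24 hrs and for the difference between the times were 0 under every alternative run. Over both times the count was 1 with the replicate block, namely Tk1, where 3.20% of all passed. It was 0 under each of the other 23 alternatives, so the pairing changed no other call of the DEX comparisons. For vehicle at 24 against 6 hrs the count of 0 became 1 with the mean of all probe sets per gene (3.45% of all genes), 3 without replicate 4 of DEX at 6 hrs (14.2% of all) and 12 without replicate 4 of vehicle at 6 hrs (31.7% of all). It became 24 without that whole pair (50.7% of all), an alternative chosen after seeing the data, as were leaving out replicate 2 at 24 hrs and reading each probe set alone. Leaving out 1 array at a time gave counts of 0 to 12 there and of 0 in the other comparisons, which by construction changes the spread, and the cause was not tested further.

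Medians at 24 hrs stayed below 0 under all 28 alternatives, from -0.206 to -0.0277. With 1 array left out they ranged from -0.199 to -0.0778 for the 45 genes, from -0.205 to -0.0687 for the replication genes and from -0.177 to -0.0778 for the mitosis genes. For the replication genes the median was -0.201 within day 2 and likewise without the pair of replicate 2, and for the mitosis genes -0.0277 within day 1. At 6 hrs the sign did not hold, and the pair of replicate 1 alone had a median of 0.04 for the 45 genes. Leaving out 1 array splits a pair, so the groups then held unequal shares of the hybridization days. With 1 array left out the medians ranged from -0.183 to 0.0797 for the 45 genes, from -0.22 to 0.0929 for the replication genes and from -0.135 to 0.0725 for the mitosis genes, each highest without replicate 4 of DEX. Within day 4, which is also the setting without the arrays of high 3′ to 5′ control ratio, they were -0.205 for the 45 genes and -0.171 for the mitosis genes. An array has no read depth, and signal near background limits Foxm1 at 6 hrs and Tyms.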
